A study of Homo sapiens with 12 samples.

Results

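The replication-dependent histone genes were taken as every gene name of the RNA-seq count table that began with HIST1H, HIST2H, HIST3H or HIST4H, and 89 of 55765 gene names met this rule. The older HIST names carry the cluster and the class of each gene. The HIST1 cluster on chromosome 6 and its stray copies gave 67 names, HIST2 on chromosome 1 gave 17, HIST3 on chromosome 1 gave 4 and HIST4 on chromosome 12 gave 1. By class there were 8 names for the linker histone H1, 22 for H2A, 26 for H2B, 17 for H3 and 16 for H4. RefSeq lists 18 of the 89 as pseudogenes.

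The cells were HEK293T, a human embryonic kidney line carrying the large T antigen of a tumour virus, although the growth protocol in the labels names the parent line HEK293. The 3 control libraries came from cells given a control siRNA, and the other 3 from cells given an siRNA against ERI2, a nuclease related to ERI1. Both groups received 50 nM siRNA, a second transfection 48 h after the first and a harvest 72 h after the second; the same protocol also mentions siRNA against ERI-1 and a harvest for microarrays. The only treated group received ERI2 siRNA and no rescue was included, so loss of ERI2 and off-target action of the siRNA cannot be told apart. The labels do not say that the 3 libraries of a group were separate cultures, and the p-values therefore reflect only how these libraries vary, a spread that may be technical.

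Replication-dependent histone genes supply the bulk of the core and linker histones that package newly copied DNA, and their mRNAs build up in S phase and are destroyed when replication stops. These mRNAs end in a conserved stem-loop in place of a poly(A) tail. The stem-loop binding protein SLBP and the U7 small nuclear ribonucleoprotein direct their 3′ end cleavage, and ERI1 binds the same stem-loop and trims the end during decay. Some of these genes also make polyadenylated transcripts. The sources used here do not give whether polyadenylated RNA was selected.

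The siRNA target was lower in every treated library. ERI2 measured 54.4, 58.2 and 54.4 counts per 1e+06 counts (CPM, scaled by the trimmed mean of M values) in control libraries 1 to 3, and 34.6, 35.8 and 32.5 CPM in ERI2 siRNA libraries 1 to 3. The groups did not overlap, and ERI2 fell, with a log2 fold change of -0.70 (SE 0.0762; edgeR quasi-likelihood test, Benjamini-Hochberg adjusted p = 0.000683). Library totals ran from 29.1 to 38.3 (in units of 1e+06 counts). All 9 listed HEK293 markers were detected, and their summed level was 1007 to 1149 CPM in control and 800.0 to 994 CPM in ERI2 siRNA libraries. VIM made up most of that sum (mean 924 of 1082 CPM in control), while PAX2 and LHX1 were low (means of 0.762 and 1.55 CPM in control). Of the other marker lists, 5 of 8 fibroblast genes (74.8 to 84.6 CPM summed in control, 62.1 to 66.0 CPM after ERI2 siRNA; COL1A2 and THY1 at 0), 4 of 8 epithelial or carcinoma genes (34.9 to 38.4 and 19.4 to 21.5 CPM; KRT5 at 0) and 3 of 7 blood genes (3.11 to 4.84 and 3.06 to 3.61 CPM; CD3E and HBB at 0) were tested. No marker was called higher. Called lower were 2 of 9 HEK293, 2 of 5 fibroblast, 4 of 4 epithelial or carcinoma and 0 of 3 blood genes, beside 4.25% of all tested genes. The part of these markers in the histone values was not tested.

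Histone genes made up a small part of all reads. Their summed share was 0.897%, 1.01% and 1.11% of counts in control libraries 1 to 3 and 1.28%, 1.08% and 1.10% in ERI2 siRNA libraries 1 to 3, so the groups overlapped. The 2 extremes were control library 1, the lowest, and ERI2 siRNA library 1, the highest, so the count of calls is also given without them. The control shares were evenly spread, and only ERI2 siRNA library 1 stood apart from its group. Of the 89 names, 52 passed the filter on low counts and were tested, 42 had a mean of at least 10 CPM and 24 a mean of at least 100 CPM. The 37 untested names were 17 pseudogenes and 20 coding genes. None of the 20 coding genes had more than 63 counts over all 6 libraries, 14 of them had at most 6, and 7 of the 37 names had no count at all. Counts were not divided by gene length, so CPM values of different genes are not compared with each other.

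After ERI2 siRNA, 5 of the 52 tested histone genes rose and 0 fell at an adjusted p under 0.05. The 5 were the H2A genes HIST3H2A and HIST2H2AA3, the H2B gene HIST3H2BB, the H4 gene HIST1H4J and the H3 gene HIST2H3PS2. They were 9.62% of the tested members, beside 4.29% of all tested genes called higher and 4.25% called lower (edgeR quasi-likelihood test, p adjusted by Benjamini-Hochberg over 18843 genes). With libraries 2 and 3 of each group alone, 4 members were called higher and 7 lower of 53 tested, beside 13.9% and 14.1% of all tested genes. HIST2H3PS2 passed the low-count filter only through the ERI2 siRNA libraries, and without it 4 of 51 were called higher (7.84%). At a raw p under 0.05, with all 6 libraries, 18 members were higher and 1, HIST1H1D, was lower, beside 13.4% and 13.1% of all tested genes. DESeq2 called 11 of the 50 members it gave an adjusted p higher and 0 lower, beside 6.08% and 5.99% of all genes. Limma-voom called 6 of 52 higher and 0 lower, beside 4.18% and 3.99%. Scaled by total library size instead, 13 were called higher, beside 5.18% of all tested genes called higher and 2.46% lower. The median log2 fold change of the 52 was 0.18, beside 0.00296 over all tested genes, and 41 of 52 values (78.8%) were above 0, beside 50.5% of all tested genes. Groups failed to overlap for 7 members, all higher after ERI2 siRNA, and for 14.1% of all tested genes in that direction and 15.6% in the other. The 7 of 52 were no larger a share than among all tested genes. In bulk RNA, a change in the number of cells making histone mRNA and a change in histone mRNA per cell cannot be told apart.

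**Figure D1:**
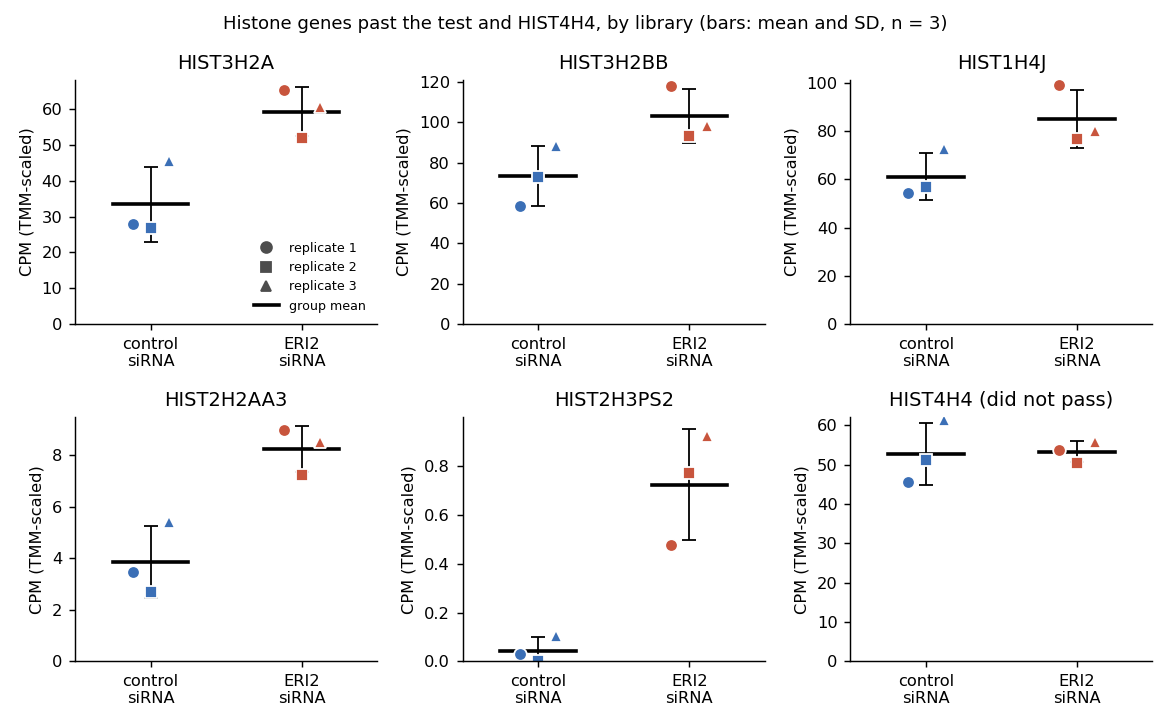
CPM of the 5 histone genes past the test and of HIST4H4, which did not pass, in each library (points, shaped by replicate number), with group means and SD (bars, n = 3). In the 5 genes that passed, every ERI2 siRNA library lies above every control library; the HIST4H4 groups overlap.

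HIST3 is a small cluster, and both of its tested genes rose. They encode an H2A and an H2B histone and are read in opposite directions from start sites 230 bases apart. HIST3H2A measured 27.8, 27.0 and 45.5 CPM in the control libraries and 65.4, 52.0 and 60.5 CPM in the ERI2 siRNA libraries. Every treated library was above every control library, and control library 3 was the highest control. Its level went from 33.4 ± 10.5 to 59.3 ± 6.78 CPM (SD, n = 3), a log2 fold change of 0.83 (SE 0.168; edgeR quasi-likelihood test, adjusted p = 0.0134). HIST3H2BB measured 58.8, 72.8 and 88.5 CPM in control libraries and 118, 93.1 and 98.4 CPM after ERI2 siRNA. Again no library of one group reached into the other, although control library 3 and ERI2 siRNA library 2 were close. HIST3H2BB rose by 0.49 on the log2 scale (SE 0.124; edgeR quasi-likelihood test, adjusted p = 0.0274), from 73.4 ± 14.9 to 103 ± 13.2 CPM (SD, n = 3). The other HIST3 members were too low to test. HIST3H3, a testis histone H3, had 0 counts in each control library and 0, 4 and 1 counts after ERI2 siRNA. The pseudogene HIST3H2BA had 1 count in each group.

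Both HIST3 calls depended on single libraries. HIST3H2A missed the threshold without ERI2 siRNA library 1 (edgeR quasi-likelihood test, adjusted p = 0.0661) and without ERI2 siRNA library 3 (adjusted p = 0.116), with log2 fold changes of 0.75 and 0.82. HIST3H2BB missed it without control library 2 (log2 fold change 0.49, adjusted p = 0.0765 in the edgeR quasi-likelihood test) and without ERI2 siRNA library 3 (0.53, adjusted p = 0.0622). Their direction was the same in each of these fits.

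The stretch between the 2 HIST3 start sites is printed because both genes are read out of it and both rose. It spans chr1:228457874-228458102 (GRCh38.p14, plus strand; sequences here and below from RefSeq). HIST1H2BC and HIST1H2AC, a divergent H2B and H2A pair of HIST1 that did not pass, are shown beside it with chr6:26123927-26124171 (plus strand). Capitals mark matches, on either strand, to TATAAA (the TATA box), CCAAT (read by NF-Y), ATTTGCAT (the octamer read by OCT1) and GTCCG (the core of the H4 site read by HINFP). None of these motifs contains another.
HIST3H2A to HIST3H2BB: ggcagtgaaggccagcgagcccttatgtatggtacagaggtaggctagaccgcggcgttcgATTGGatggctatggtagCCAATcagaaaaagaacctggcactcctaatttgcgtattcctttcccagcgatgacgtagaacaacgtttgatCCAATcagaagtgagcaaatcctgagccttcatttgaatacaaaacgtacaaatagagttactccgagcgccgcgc
HIST1H2BC to HIST1H2AC: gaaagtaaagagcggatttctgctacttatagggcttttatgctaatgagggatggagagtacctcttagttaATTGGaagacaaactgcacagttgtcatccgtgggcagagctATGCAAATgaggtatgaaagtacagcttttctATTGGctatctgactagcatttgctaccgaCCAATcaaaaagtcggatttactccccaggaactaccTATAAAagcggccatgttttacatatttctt
The HIST3 stretch held 3 CCAAT matches and no match to the octamer or TATAAA. The HIST1 stretch held 3 CCAAT matches, 1 TATAAA and 1 octamer on the minus strand. A match describes the letters and is not evidence of a bound factor.

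With start sites at most 1000 bases apart, 13 divergent pairs were found among the members, of which 11 had both genes tested. HIST1H3D and HIST1H2AD have the same listed start site, so HIST1H2BF is the partner of both. In 10 of the 11 pairs the fold changes had the same sign, and the partners differed by a median of 0.17 and at most 0.34 on the log2 scale. The median log2 fold change of all 52 tested members was itself only 0.18, with 41 above 0, so nothing is read from the shared sign about pairing. HIST3H2A and HIST3H2BB, the pair that differed most of the 11, was also the only one of them with a called gene. HIST1H2AD (-0.10) and HIST1H2BF (0.14) differed in sign, and neither passed. HIST1H2BC and HIST1H2AC both had a log2 fold change of 0.20 (edgeR quasi-likelihood test, adjusted p = 0.339 and 0.298). Partners share libraries and neighbouring sequence, so these are descriptions without a test.

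**Figure D2:**
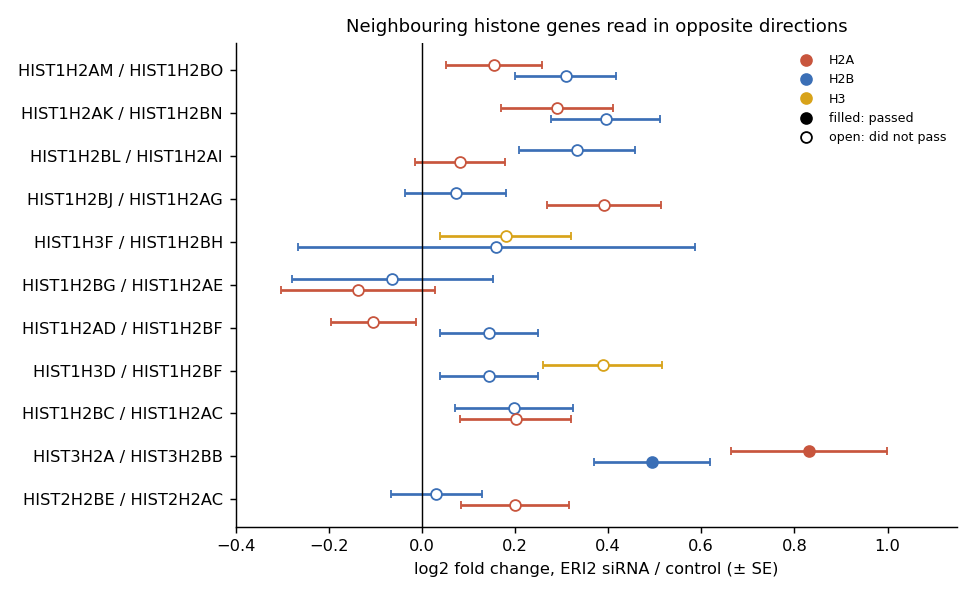
Log2 fold change (x axis, ERI2 siRNA over control, with SE from the fit) of the partners in the 11 divergent pairs with both genes tested, coloured by histone class. Filled points passed the test; both filled points belong to the HIST3 pair, at 0.83 and 0.49.

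In HIST2, 2 of 10 tested genes rose, or 1 of 9 without HIST2H3PS2, and each has a member with a near-identical promoter. HIST2H2AA3, an H2A gene, measured 3.47, 2.70 and 5.402 CPM in control and 8.998, 7.24 and 8.51 CPM after ERI2 siRNA, resting on 100 to 284 counts a library. The groups did not overlap, and all treated libraries stood above the highest control. Its log2 fold change was 1.11 (SE 0.204; edgeR quasi-likelihood test, adjusted p = 0.00779), and it kept the call under every alternative tried. Its copy HIST2H2AA4, which shares 299 of 299 compared promoter bases, was too low to test. It had 2, 4 and 7 counts in control libraries and 19, 10 and 11 after ERI2 siRNA, higher in each treated library as well. Only the promoter windows were compared, and how the reads divide between the 2 genes was not tested.

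HIST2H3PS2, an H3 gene that RefSeq lists as coding although its older name marks a pseudogene, rested on few counts. It had 1, 0 and 3 counts in control libraries and 15, 26 and 28 after ERI2 siRNA, so all treated libraries were higher. The fitted log2 fold change of 4.05 (SE 0.660; edgeR quasi-likelihood test, adjusted p = 0.00500) hangs on 4 control counts in all and on the prior count of the fit. A gene that passes the filter through 1 group alone had to differ between the groups. Its promoter matched that of the H3 gene HIST2H3D at 294 of 299 compared bases. HIST2H3D itself measured 29.2, 30.2 and 50.95 CPM in control and 60.1, 50.6 and 52.1 CPM after ERI2 siRNA. ERI2 siRNA library 2 was just under the highest control, and HIST2H3D did not pass (log2 fold change 0.57, SE 0.178; edgeR quasi-likelihood test, adjusted p = 0.0715). It passed with limma-voom (adjusted p = 0.0328) and, in the edgeR quasi-likelihood test, without a count filter (0.0324), at a minimum of 1 CPM (0.0457) and without control library 3 (0.00360). Whether HIST2H3PS2 reads came from HIST2H3D was not tested. Of the remaining HIST2 genes, HIST2H2AC (0.20), HIST2H2BF (0.18) and HIST2H2BE (0.03) had small positive log2 fold changes and the H4 gene HIST2H4A a small negative one (-0.06), and none of them passed.

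The promoters of the HIST2 genes that rose, and of HIST2H3D, are printed over the 200 bases before their start sites, so that the copy can be compared base by base. HIST2H2AA3 covers chr1:149842751-149842950 on the minus strand, HIST2H3PS2 chr1:143905978-143906177 on the minus strand and HIST2H3D chr1:149813694-149813893 on the minus strand, each read 5′ to 3′ toward its gene. Capitals mark the same motifs as above.
HIST2H2AA3: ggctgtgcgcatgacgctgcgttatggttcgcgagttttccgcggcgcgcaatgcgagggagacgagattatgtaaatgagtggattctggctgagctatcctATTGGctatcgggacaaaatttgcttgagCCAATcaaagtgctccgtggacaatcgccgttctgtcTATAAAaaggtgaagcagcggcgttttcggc
HIST2H3PS2: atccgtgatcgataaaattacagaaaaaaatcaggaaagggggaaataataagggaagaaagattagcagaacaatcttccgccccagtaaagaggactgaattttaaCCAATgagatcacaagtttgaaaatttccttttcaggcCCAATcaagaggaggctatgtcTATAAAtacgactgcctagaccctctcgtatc
HIST2H3D: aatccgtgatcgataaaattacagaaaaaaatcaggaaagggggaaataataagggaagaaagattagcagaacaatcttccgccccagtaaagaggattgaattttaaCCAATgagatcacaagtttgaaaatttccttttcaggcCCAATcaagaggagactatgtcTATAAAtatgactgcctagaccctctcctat
All 3 held TATAAA and 2 CCAAT matches. In HIST2H2AA3 one of the CCAAT matches lay on the opposite strand.

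In HIST1, 1 of 39 tested genes rose, the H4 gene HIST1H4J. It measured 54.2, 56.8 and 72.6 CPM in control and 99.0, 76.7 and 79.9 CPM after ERI2 siRNA. The groups did not overlap, and ERI2 siRNA library 1 was the highest. HIST1H4J rose by 0.48 on the log2 scale (SE 0.114; edgeR quasi-likelihood test, adjusted p = 0.0217) and missed the threshold without control library 2 (0.43, adjusted p = 0.0809). Its neighbour HIST1H4K, an H4 gene with 295 of 300 identical promoter bases, was low, at 0.783 to 1.12 CPM in control and 0.957 to 1.74 CPM after ERI2 siRNA. HIST1H4I, an H4 gene in the middle of the cluster, was also low, at 0.314 to 0.825 CPM in control and 0.594 to 0.950 CPM after ERI2 siRNA, with a log2 fold change of 0.64 (edgeR quasi-likelihood test, adjusted p = 0.315). HIST1H4K had a log2 fold change of 0.54 and did not pass (edgeR quasi-likelihood test, adjusted p = 0.251). The 3 H4 genes with the most reads lie at the other end of the cluster, and none passed. HIST1H4C measured -0.03, HIST1H4D -0.01 and HIST1H4E -0.06 (log2 fold change; edgeR quasi-likelihood test, adjusted p = 0.883, 0.950 and 0.725).

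HIST1H4J (chr6:27823892-27824091 on the plus strand), HIST1H4K (chr6:27831561-27831760 on the minus strand) and, for contrast, HIST1H4E (chr6:26204410-26204609 on the plus strand) are printed over the 200 bases before their start sites. HIST1H4J rose, while HIST1H4K and HIST1H4E did not pass. Capitals mark the same motifs.
HIST1H4J: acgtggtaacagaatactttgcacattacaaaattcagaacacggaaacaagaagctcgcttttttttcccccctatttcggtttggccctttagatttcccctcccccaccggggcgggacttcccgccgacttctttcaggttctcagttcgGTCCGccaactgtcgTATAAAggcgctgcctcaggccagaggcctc
HIST1H4K: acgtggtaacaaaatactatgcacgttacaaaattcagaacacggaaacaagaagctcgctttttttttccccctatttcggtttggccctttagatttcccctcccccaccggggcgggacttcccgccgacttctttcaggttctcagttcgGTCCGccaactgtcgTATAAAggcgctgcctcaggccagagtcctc
HIST1H4E: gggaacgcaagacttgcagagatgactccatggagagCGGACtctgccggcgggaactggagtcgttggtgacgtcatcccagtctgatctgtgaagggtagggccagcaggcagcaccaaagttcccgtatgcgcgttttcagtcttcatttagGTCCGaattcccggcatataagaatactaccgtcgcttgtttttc
HIST1H4J and HIST1H4K held GTCCG and TATAAA at the same positions, 46 and 31 bases before the start site. HIST1H4E held GTCCG on each strand and no TATAAA.

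The motifs followed the histone class. Promoter windows of 300 bases (250 before and 50 after the start site) were found for 66 members, 47 of them tested, among 35116 promoters. The octamer ATTTGCAT was in 11 of 16 H2A and 14 of 18 H2B windows, in 1 of 13 H3 windows (HIST1H3D, whose start site is that of HIST1H2AD) and in none of the 6 H1 and 13 H4 windows, beside 1.77% of all promoters. GTCCG was in 12 of 13 H4 windows and in 28.9% of all promoters. CCAAT was in every H1, H2A, H2B and H3 window, in 3 of 13 H4 windows and in 34.6% of all promoters, and TATAAA was in 44 of 66 windows and 11.5% of all promoters. None of the 5 genes that rose had the octamer in its window. The 19 tested genes with it had a median log2 fold change of 0.18, and the 28 without it 0.19. Within H2A the medians were 0.20 for 9 genes with it and 0.56 for 4 without it, which include HIST2H2AA3 and HIST3H2A. Within H2B they were 0.16 for 9 with it and 0.36 for 4 without it, which include HIST3H2BB. These are descriptions without a test. TATAAA was present in HIST2H2AA3, HIST2H3PS2 and HIST1H4J, and absent from both HIST3 genes.

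Between classes, fold changes of H2A, H2B and H3 genes were mostly above 0, while those of H1 and H4 genes were split. In H2A, 12 of 14 were above 0 (median 0.23) and 2 rose. In H2B, 13 of 14 were above 0 (median 0.19) and 1 rose, and in H3 it was 9 of 10 (median 0.24) with 1 rise. That H3 gene was HIST2H3PS2, which passed the low-count filter only through the ERI2 siRNA libraries. In H4, 6 of 11 were above 0 (median 0.02) and 1 rose. Of the 3 tested H1 genes, 1 was above 0 (median -0.07) and none passed. With libraries scaled to the summed histone counts, the median of all tested genes moved to -0.14, that of H4 turned to -0.11 and those of H2A, H2B and H3 were 0.09, 0.05 and 0.10. Between the means of libraries 2 and 3, the medians were -0.26 for H1, 0.03 for H2A, -0.02 for H2B, 0.10 for H3 and -0.15 for H4. The difference between classes was not tested.

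The 3 genes with the most reads in each class, a ranking not scaled by length, did not pass with all 6 libraries and TMM scaling. In H2A, HIST1H2AG, which makes a standard H2A protein, measured 411, 423 and 528 CPM in control and 708, 525 and 554 CPM after ERI2 siRNA. The groups overlapped only between control library 3 and ERI2 siRNA library 2, and the log2 fold change was 0.39 (SE 0.123; edgeR quasi-likelihood test, adjusted p = 0.0619). HIST2H2AC and HIST1H2AH, at 0.20 and 0.25, did not pass either (adjusted p = 0.288 and 0.146 in the edgeR quasi-likelihood test). In H2B, HIST1H2BK, known to make polyadenylated mRNA, had a log2 fold change of 0.33 (adjusted p = 0.102 in the edgeR quasi-likelihood test), with HIST1H2BD at 0.20 and HIST1H2BJ at 0.07. In H3, HIST1H3B measured 515, 598 and 742 CPM in control and 817, 653 and 627 CPM after ERI2 siRNA, with the treated libraries 2 and 3 inside the control range. Its log2 fold change was 0.18 (edgeR quasi-likelihood test, adjusted p = 0.422), beside 0.39 for HIST1H3H (adjusted p = 0.0824) and 0.21 for HIST1H3A (adjusted p = 0.333). Some of these calls changed with the processing. DESeq2 gave an adjusted p of 0.0103 for HIST1H2AG, 0.0354 for HIST1H2BK and 0.0252 for HIST1H3H. In the edgeR quasi-likelihood test with total library size it was 0.0212, 0.0325 and 0.0481 for the same genes and 0.0442 for HIST1H2AH, and without a count filter 0.00196, 0.0149 and 0.00117 for the first 3. HIST1H2AG also passed with upper-quartile scaling (0.0362) and HIST1H3H without control library 3 (0.0493).

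The linker histone genes had no common direction. HIST1H1C measured 1259.8, 1542 and 1670.4 CPM in control and 1589, 1341 and 1335 CPM after ERI2 siRNA, a log2 fold change of -0.07 (edgeR quasi-likelihood test, adjusted p = 0.763). HIST1H1D measured 137, 180.3 and 194 CPM in control and 160.1, 140.0 and 132 CPM after ERI2 siRNA. Its control library 1 was among the lowest values and the groups overlapped, with a log2 fold change of -0.24, the lowest among the 52 tested members (SE 0.112; edgeR quasi-likelihood test, adjusted p = 0.186). It passed as lower without a count filter (adjusted p = 0.0406) and without control library 1 (adjusted p = 0.0148). HIST1H1E had a log2 fold change of 0.16 (adjusted p = 0.394 in the edgeR quasi-likelihood test). HIST1H1B, another somatic H1 gene, had 3 counts over all 6 libraries.

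**Figure D3:**
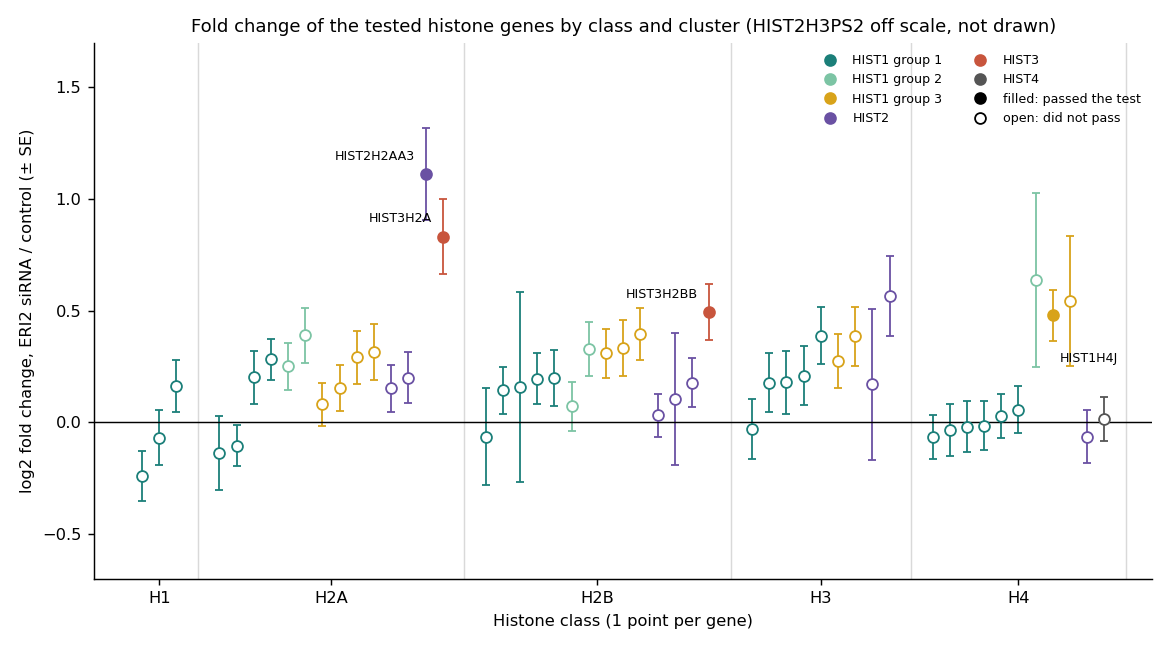
Log2 fold change (ERI2 siRNA over control, with SE) of the tested histone genes, ordered by class and coloured by cluster; HIST2H3PS2, at 4.05, lies off the scale. Filled points passed the test. Most H2A, H2B and H3 points lie above 0, and H1 and H4 points lie on both sides.

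HIST4H4, the lone HIST4 gene and an H4 gene, showed no change that could be detected. It measured 45.6, 51.3 and 61.3 CPM in control and 53.7, 50.4 and 55.7 CPM after ERI2 siRNA, so the treated libraries lay within the control range. The log2 fold change was 0.02 (SE 0.0979; edgeR quasi-likelihood test, adjusted p = 0.939).

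Testis histones were at or near the limit of detection. HIST1H2AA, a testis H2A, had 0 counts in all 6 libraries. A count of 0 allows up to 3 counts, which is 0.0810 to 0.105 CPM per library (counting error only). HIST1H2BA had 3 counts in all, HIST3H3 had 5 and the linker histone HIST1H1T had 26 in control and 29 after ERI2 siRNA. The 7 members listed here as also making polyadenylated transcripts had a median log2 fold change of 0.20, with 0 called by the edgeR quasi-likelihood test and 1 higher at a raw p under 0.05. The other 44 tested coding members held all 5 calls (11.4%, beside 4.29% of all tested genes) and had a median of 0.18. The 5 include HIST2H3PS2, which passed the low-count filter only through the ERI2 siRNA libraries. The 7 are too few for their 0 calls to be set against those of the 44, and the difference was not tested.

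Fold changes in HIST1 were also described by position. Neighbours on chromosome 6 were grouped wherever the next member lay more than 0.5 Mb away, which gave 3 groups in the order of the chromosome. Group 1, with all 3 tested H1 genes and 6 of the tested H4 genes, had 13 of 23 fold changes above 0 and a median of 0.06, which turned to -0.08 with libraries scaled to the summed histone counts. All 5 in group 2 (median 0.33) and all 11 in group 3 (median 0.32) were above 0. At a raw p under 0.05, 2 genes of group 1, 3 of group 2 and 8 of group 3 were higher and HIST1H1D of group 1 was lower, beside 13.4% and 13.1% of all tested genes. Of these, only HIST1H4J of group 3 passed after adjustment. Between the means of libraries 2 and 3, the median difference was -0.11 in group 1, 0.12 in group 2 and 0.10 in group 3. In group 3, HIST1H2BN had a log2 fold change of 0.39 (edgeR quasi-likelihood test, adjusted p = 0.0520) and HIST1H2BO 0.31 (adjusted p = 0.0908). Class and position overlap, and the difference between groups was not tested.

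The upward shift was seen mainly between the libraries numbered 1. Control library 1 held the lowest value for 39 of 52 tested histone genes, beside 14.3% of all tested genes, and ERI2 siRNA library 1 the highest for 36 of 52 (69.2%), beside 14.6%. Between these 2 libraries, the median difference of the members was 0.59 on the log2 scale and 50 of 52 were higher after ERI2 siRNA. Between the means of libraries 2 and 3, the median was -0.03 and 24 of 52 were higher. The same medians over all tested genes were -0.00576 and 0.00185. Summed levels of other gene lists moved partly alike. The 25 S-phase genes had 4531, 5131 and 5143 CPM in control and 4853, 4534 and 4465 CPM after ERI2 siRNA. The 18 G2 and mitosis genes had 3844, 4411 and 4188 CPM in control and 4400, 3860 and 3846 CPM after ERI2 siRNA. In both lists, library 1 was the lowest control and the highest treated library. The lists for 3′ end processing, histone gene transcription, export, translation and decay, and histone chaperones had the same order. So did the histones expressed outside S phase or in variant form, the HEK293 markers and the epithelial or carcinoma markers. The fibroblast and blood markers did not. The part of any of these lists in the histone values was not tested.

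Libraries 2 and 3 alone gave 11 called members (edgeR quasi-likelihood test). The libraries numbered 1 were left out because they held the lowest control and the highest treated histone sums, so leaving them out lowers the histone difference by construction. The 4 higher genes were HIST1H4J, HIST2H2AA3, HIST2H3PS2 and HIST3H2BB, at log2 fold changes of 0.27, 0.98, 4.09 and 0.24. HIST3H2A stayed above 0 (0.64) and missed the threshold (adjusted p = 0.268 in the edgeR quasi-likelihood test). The 7 lower genes were all in HIST1 group 1. They were the linker genes HIST1H1C (-0.27) and HIST1H1D (-0.46), the H2A gene HIST1H2AE (-0.43), and the H4 genes HIST1H4C (-0.27), HIST1H4D (-0.22), HIST1H4E (-0.25) and HIST1H4H (-0.27). Neither the 4 nor the 7 were a larger share of the 53 than the calls among all tested genes.

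**Figure D4:**
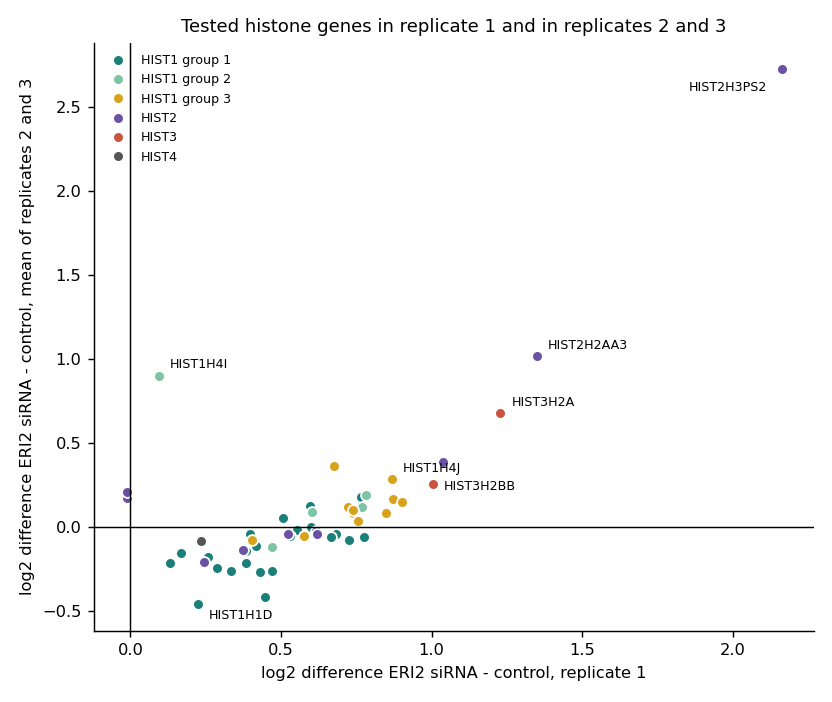
Each tested histone gene's log2 difference between the 2 libraries numbered 1 (x axis) and between the means of libraries 2 and 3 (y axis), ERI2 siRNA minus control, with a pseudocount of 0.1 CPM. Almost all points lie right of 0 (50 of 52), while 24 of 52 lie above 0 on the y axis; HIST2H3PS2, HIST2H2AA3 and HIST3H2A are among the highest on both.

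The make-up of the histone reads was measured apart from their total, a measure chosen after the values were seen. Linker histones took 24.6%, 25.6% and 24.7% of all histone counts in control and 22.1%, 23.4% and 22.97% after ERI2 siRNA, lower in each treated library. Within that class, HIST1H1C and HIST1H1D were lower in each treated library. The share of HIST1H1E overlapped, with means of 8.84% in control and 9.01% after ERI2 siRNA. H4 genes also took a smaller share, at 16.5%, 16.5% and 15.9% against 14.8%, 15.2% and 14.4%. The groups did not overlap for either class. H2A genes took 18.8%, 17.7% and 18.0% in control and 19.9%, 19.0% and 19.9% after ERI2 siRNA. H2B genes took 29.5%, 29.8% and 29.5% in control and 31.1%, 30.6% and 31.1% after ERI2 siRNA. Both shares were higher in every treated library, while H3 shares overlapped. The shares add up to the whole, so a lower share of one class raises the others.

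By position, the share shifted between the groups of HIST1. Group 1 took 58.8%, 59.5% and 59.0% of histone counts in control and 55.8%, 56.7% and 55.3% after ERI2 siRNA. Group 2 went from 16.6%, 15.9% and 16.7% to 17.9%, 17.6% and 18.2%, and group 3 from 12.01%, 11.8% and 12.4% to 13.5%, 13.2% and 13.4%. The groups did not overlap in any of these, group 1 being lower and groups 2 and 3 higher. H4 genes of group 1 held 15.1% ± 0.389 of histone counts in control and 13.4% ± 0.459 after ERI2 siRNA (SD, n = 3), and H4 genes of group 3 held 0.605% ± 0.0456 and 0.761% ± 0.0153. The latter is nearly all HIST1H4J, at 0.594% ± 0.0436 and 0.749% ± 0.0167. H2B genes took a higher share in every treated library in all 3 groups, group 1 included, where they went from 8.47% to 8.76%. Summed by class, the shares of group 1 H2A and H3 genes overlapped, and those of its H1 and H4 genes were lower in every treated library. HIST3 took 0.985%, 0.955% and 1.149% in control and 1.41%, 1.38% and 1.498% after ERI2 siRNA, and HIST2 overlapped.

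Gene by gene, the share of histone counts was higher in all treated libraries for 16 of the 52 tested members and lower in all for 11, beside 2.85% and 19.3% of all tested genes when each is divided by the histone total. Dividing by that total centres the members and lowers other genes (median -0.14), so nothing is read from either comparison with all genes. Group 3 of HIST1 held 7 of the 16 and none of the 11. Group 1 held 2 of the 16 and 9 of the 11. The 9 were HIST1H1C, HIST1H1D, the H2A genes HIST1H2AD and HIST1H2AE, and the H4 genes HIST1H4A, HIST1H4C, HIST1H4D, HIST1H4E and HIST1H4H. When the whole table was fitted with libraries scaled to the summed histone counts, 3 members were called higher and 0 lower (edgeR quasi-likelihood test). The 3 were HIST2H2AA3, HIST2H3PS2 and HIST3H2A, and HIST2H3PS2 passed the filter only through the ERI2 siRNA libraries. Of all tested genes, 0.324% were called higher and 1.31% lower. The scaling lowers the other genes here as well, so nothing is read from these shares. At a raw p under 0.05, 6 members were higher and 1 was lower, and the share of all tested genes was not counted on that scale. No other tool was run on that scale. The shifts in share by class and position are descriptions and were not tested.

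**Figure D5:**
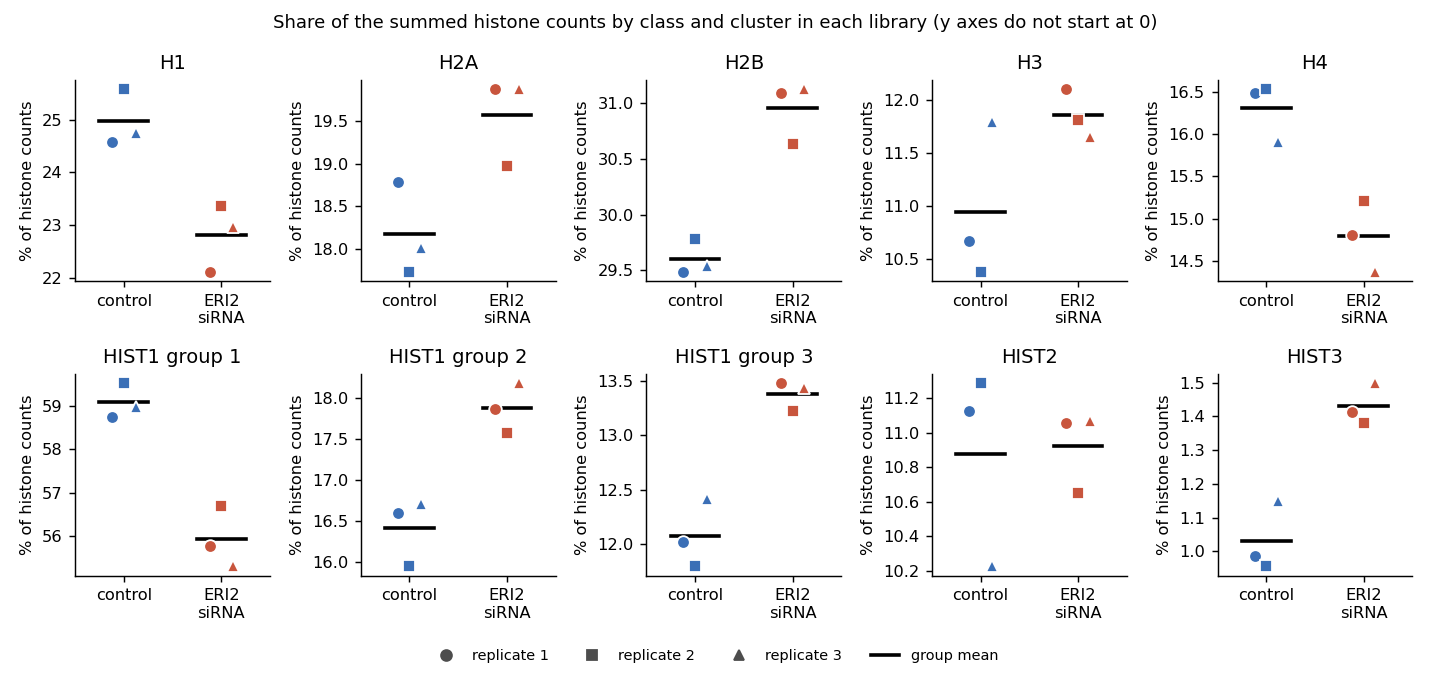
Share of the summed histone counts (%) taken by each class and by each cluster or HIST1 group in every library (points, shaped by replicate number; lines are group means); the y axes do not start at 0. H1, H4 and HIST1 group 1 lie lower in all ERI2 siRNA libraries, H2A, H2B, HIST1 groups 2 and 3 and HIST3 lie higher, and H3 and HIST2 overlap.

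Summed levels per cluster mostly overlapped. HIST1 summed to 9027 ± 1298 CPM in control and 9909 ± 1214 CPM after ERI2 siRNA (SD, n = 3), HIST2 to 1117 ± 120.0 and 1243 ± 169 CPM, and HIST4 to 52.7 ± 7.94 and 53.3 ± 2.70 CPM. HIST3 summed to 107 ± 24.5 and 163 ± 19.5 CPM, with every treated library above every control library (86.6, 99.8 and 134 against 184, 145 and 159 CPM). HIST3 was the only cluster whose libraries did not overlap.

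Among factors that make and remove histone mRNA, 1 of 81 tested genes rose and 1 fell, the latter being ERI2. Of all tested genes, 4.29% were called higher and 4.25% lower. With libraries 2 and 3 alone, 6 of the 81 were higher and 24 lower, beside 13.9% and 14.1% of all tested genes. The 24 were a larger share than among all tested genes, and the 6 a smaller one. In each list these factors came from, library 1 held the lowest control and the highest treated sum. Leaving out the libraries numbered 1 thus lowers the difference for these factors as well, so nothing is read from either share. The values below are from all 6 libraries. Of 22 genes for 3′ end processing, CPSF1, a subunit of the cleavage complex, rose from 114 ± 6.95 to 144 ± 11.7 CPM (SD, n = 3; log2 fold change 0.33; edgeR quasi-likelihood test, adjusted p = 0.0214). That call was lost without control library 2 or 3 and without ERI2 siRNA library 2 or 3. SLBP, the stem-loop binding protein, measured 69.5, 85.0 and 83.8 CPM in control and 76.9, 68.8 and 66.7 CPM after ERI2 siRNA, and did not pass (log2 fold change -0.17, adjusted p = 0.251 in the edgeR quasi-likelihood test). SRRT, which links the cap-binding complex to RNA processing, had a log2 fold change of 0.22 (adjusted p = 0.0645 in the edgeR quasi-likelihood test), and CPSF4, another cleavage complex subunit, 0.16 (adjusted p = 0.208). None of 13 factors for histone gene transcription passed the edgeR quasi-likelihood test. At a raw p under 0.05, 0 were higher and 1 was lower, beside 13.4% and 13.1% of all tested genes. The lower gene was GTF2A1 of the general transcription machinery (log2 fold change -0.22).

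Of 24 genes for export, translation and decay, ERI2 alone passed. ERI1 measured 27.8, 30.0 and 27.2 CPM in control and 22.9, 26.5 and 22.9 CPM after ERI2 siRNA. Every treated library was below every control library, and ERI1 did not pass (log2 fold change -0.23, adjusted p = 0.112 in the edgeR quasi-likelihood test). ERI3 had a log2 fold change of -0.06 (adjusted p = 0.706), and the decay-ring subunits LSM5 and LSM7 had -0.27 and 0.21 and did not pass. Of 23 histone chaperones, acetyltransferases and importins, none passed the edgeR quasi-likelihood test. At a raw p under 0.05, 3 were higher and 5 lower, beside 13.4% and 13.1% of all tested genes. HAT1, which acetylates new H4, and the importin IPO4 had log2 fold changes of 0.24 and 0.28 and did not pass.

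Of 12 tested histone genes expressed outside S phase or in variant form, 1 rose and 1 fell. Of all tested genes, 4.29% rose and 4.25% fell, and these shares stand beside the S-phase genes below as well. H2AFX, the H2A variant phosphorylated at DNA breaks, measured 47.8, 47.4 and 63.1 CPM in control and 90.1, 77.6 and 82.9 CPM after ERI2 siRNA. The groups did not overlap, and H2AFX rose by 0.67 on the log2 scale (SE 0.104; edgeR quasi-likelihood test, adjusted p = 0.00393). H2AFY2, a macroH2A gene, fell by 0.30 (adjusted p = 0.0348 in the edgeR quasi-likelihood test). The linker variants H1F0 and H1FX had log2 fold changes of -0.26 and 0.32 and did not pass. Of 25 S-phase genes, UHRF1 rose by 0.30 and TYMS fell by 0.33 (edgeR quasi-likelihood test, adjusted p = 0.0273 and 0.0264), while CDT1 (0.33) and MCM6 (-0.28), which license replication origins, did not pass. None of 18 G2 and mitosis genes passed that test. At a raw p under 0.05, 1 was higher and 2 lower, beside 13.4% and 13.1% of all tested genes.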

How the data were processed

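RNA-seq read counts per gene, whole numbers as deposited by the authors, were used for 6 libraries; the miRNA-seq table was not used here. The submitters' processing notes name CASAVA 1.8.2, TopHat2 2.0.10, HTSeq 0.6.1p1 and hg19, with no role or order; annotation release and strand setting: not given in the sources used here. Reads of near-identical copies and antisense partners may thus be shared. Every count column matched 1 sample, and 0 were left without one.

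After filterByExpr and TMM scaling, counts were tested with edgeR 4.0.16 (robust quasi-likelihood, R 4.3.3), with Benjamini-Hochberg adjustment over 18843 genes and a threshold of 0.05. Libraries held 29.1 to 38.3 (in units of 1e+06 counts). The fit was tested on simulated data. CPM values use TMM-scaled library sizes.

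The members, lists and rule for named genes were chosen with earlier results of these data known. Named were called members, the 3 with the most reads per class, all HIST3, HIST4 and testis genes, the 5 highest and 5 lowest fold changes, ERI1, ERI2 and ERI3, and in each list up to 5 called and 2 uncalled genes by p; others were chosen after their values were seen. All 89 names were matched to RefSeq, whose tables (GRCh38.p14, another build than the files') gave biotypes, neighbour order and promoters. Alternatives were DESeq2 1.42.0, limma-voom (limma 3.58.1), other scalings (RLE, total size, upper quartile, TMM without the members), other filters, a replicate block, a stricter threshold, left-out libraries, libraries 2 and 3 alone and, chosen after seeing the data, scaling to the summed histone counts.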

Additional observations from a re-analysis of the deposited data

How the results depend on the processing

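The 5 of 52 histone genes called higher became 11 of 50 with DESeq2, 13 with total library size and 9 with upper-quartile scaling. They became 17 without a count filter, where 82 members were tested. They became 3 with scaling to the summed histone counts and 2 at an adjusted p under 0.01. Leaving out a library gave 3 (without control library 2 or ERI2 siRNA library 3) to 8 (without control library 3). The 0 called lower became 1 without a count filter and 7 with libraries 2 and 3 alone, and leaving out a library gave 0 to 1 (without control library 1). The factors called higher (1 of 81) numbered 3 with DESeq2, 5 with total library size and 3 with the upper quartile. They numbered 2 at a minimum of 1 CPM, and 0 with histone scaling or at an adjusted p under 0.01. With libraries 2 and 3 alone, 6 of 81 were higher, beside 13.9% of all tested genes. Leaving out a library gave 0 to 1. Those called lower (1 of 81) numbered 3 with DESeq2, 3 without a count filter and 2 with histone scaling. With libraries 2 and 3 alone, 24 of 81 were lower, beside 14.1% of all tested genes. Leaving out a library gave 1 to 4 (without control library 1 or ERI2 siRNA library 1). Calls among all tested genes went from 4.29% higher and 4.25% lower to 5.18% and 2.46% with total library size. With DESeq2 they were 6.08% and 5.99%. These shares were not counted for upper-quartile scaling or without a count filter. Nor were they counted with 1 library left out, a replicate block, a minimum of 1 CPM or an adjusted p under 0.01. The counts under these settings are therefore not read as changes in the histone genes or factors. With upper-quartile scaling and without a count filter, the median of all tested genes moved from 0.00296 to 0.0313 and 0.0315. The median of the members turned from 0.18 to -0.0253 with libraries 2 and 3 alone and was 0.08 to 0.29 without each library, lowest without ERI2 siRNA library 1 or control library 1. The cause of these shifts was not tested.

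The log2 ratio of summed levels was 0.13 for HIST1, 0.15 for HIST2, 0.61 for HIST3, 0.01 for HIST4, 0.01 for H1, 0.25 for H2A, 0.21 for H2B, 0.25 for H3 and 0.00341 for H4. Between the libraries numbered 1 it was 0.56, 0.55, 1.08, 0.24, 0.41, 0.64, 0.64, 0.74 and 0.41 in that order. With libraries 2 and 3 alone it was -0.0748 for HIST1, -0.0486 for HIST2, 0.38 for HIST3, -0.0853 for HIST4, -0.18 for H1, 0.0537 for H2A, -0.00762 for H2B, 0.0102 for H3 and -0.20 for H4.

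Same-numbered libraries did not deviate together (correlations of -0.30, -0.08 and -0.10), so the numbers were not taken to pair them. With the replicate number as a block, 3 members were higher and 0 factors were higher; HIST1H4J (adjusted p = 0.0809) and HIST3H2BB (adjusted p = 0.0945) missed the threshold in the edgeR quasi-likelihood test. Under histone scaling HIST1H4J (adjusted p = 0.254) and HIST3H2BB (adjusted p = 0.206) missed it in the same test. HIST2H3PS2 kept its call wherever it was tested; DESeq2 gave it no adjusted p, and a minimum of 1 CPM left it out. Low counts limit the 37 untested names.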
